A study of Homo sapiens with 6 samples.

Results

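The respiratory chain subunits encoded in the nucleus were followed here through inhibition of PRMT5, an arginine methyltransferase that dimethylates its substrates symmetrically. Members were the protein-coding genes whose names begin as the subunit genes of complexes I to V and cytochrome c do (NDUF with a subunit letter and number, SDHA to SDHD, UQCR, CYC1, CYCS, COX4 to COX8 and ATP5). This rule by name found 92 of the 58735 genes in the deposited table, and it used no measured value. RNA sequencing was done on 6 libraries labelled as BxPC-3, an established line of human pancreatic cancer cells. For 3 libraries the cells were treated with GSK3326595, a small molecule that inhibits PRMT5, and 3 libraries served as their controls, titled DMSO after the solvent. Dose, duration and the source of each replicate are not given in the labels, so a p-value reflects no more than the spread among these libraries, which may be technical. The series' design text names a knockdown and the labels of all 6 libraries name the inhibitor, and the labels were followed here.

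The respiratory chain passes electrons from NADH and succinate to oxygen in the inner mitochondrial membrane. Complex I and complex II feed electrons to ubiquinone, complex III passes them to cytochrome c, and complex IV hands them to oxygen, while complexes I, III and IV pump protons. Complex V, the ATP synthase, uses the proton gradient to make ATP. A small number of core subunits are encoded in mitochondrial DNA, and all other subunits are nuclear genes whose promoters are known to bind NRF1 and the ETS-family factor GABP, both regulators of mitochondrial biogenesis.

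Levels were given as FPKM, fragments per kilobase of listed gene length, scaled to the library. Of the 92 members, 81 reached 1 FPKM in at least 3 of the 6 libraries and were tested: 37 of 39 for complex I, 4 of 4 for complex II, 10 of 10 for complex III, cytochrome c itself (CYCS), 11 of 17 for complex IV and 18 of 21 for complex V. Of the 11 that were not, COX4I2, COX6A2, COX7B2 and the readthrough gene NDUFC2-KCTD14 had 0 reads in all 6 libraries, which allows a level of up to 0.0611 FPKM, at 3 reads over the 6 libraries and covering counting error only. COX8C, ATP5MF-PTCD1, ATP5MGL, NDUFA7, COX6B2 and COX7A1 stayed below 1 FPKM in every library. ATP5S (current symbol DMAC2L) lay just outside the filter, reaching only 0.934 FPKM in its library ranked 3 of 6, and NDUFA13 just inside, with 1.42 FPKM in the library of that rank. ATP5S had 1.10, 1.22 and 0.934 FPKM in inhibitor libraries, against 0.390, 0.465 and 0.371 FPKM in DMSO libraries, without overlap. In a fit with no filter its log2 fold change was 0.56 (limma adjusted p = 0.0667).

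The inhibitor libraries held 14087260 to 15724750 reads and the DMSO libraries 14201282 to 15302555. PRMT5 transcript was at 13.4, 12.8 and 12.1 FPKM in inhibitor libraries, against 23.2, 24.6 and 26.2 FPKM in DMSO libraries (log2 fold change -0.90, limma adjusted p = 0.00493). An inhibitor acts on the protein, whereas a knockdown lowers the transcript. Whether the lower transcript goes with the inhibitor of the labels or the knockdown of the design text was not tested. The keratins KRT7, KRT8 and KRT18 and the mucin MUC1 were detected at 20.2 FPKM or more in every library. The ductal markers KRT19, CEACAM6 and PDX1 had 0 reads, and EPCAM and CDH1 stayed under 0.5 FPKM. CDKN2A and SMAD4, known as deleted in BxPC-3, were detected: CDKN2A had 24.7 to 64.7 FPKM in inhibitor libraries and 95.6 to 118 FPKM in DMSO libraries, and SMAD4 had 2.61 to 3.63 FPKM in inhibitor libraries and 3.34 to 3.90 FPKM in DMSO libraries. Of the 5 fibroblast markers, COL1A2 and LUM had 0 reads, DCN had at most 0.0665 FPKM, COL1A1 had 5.39 to 10.4 FPKM in inhibitor libraries and 4.23 to 4.49 FPKM in DMSO libraries, and PDGFRB 4.09 to 5.09 FPKM in inhibitor libraries and 0.861 to 1.19 FPKM in DMSO libraries. The 5 immune and endothelial markers stayed under the filter. These values go against the cell line label in part, and the libraries are described below by group only.

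Inhibitor replicate 2 stood apart from the other 5 libraries. Mitochondrially encoded transcripts took 6.03%, 11.3% and 5.84% of the reads of inhibitor replicates 1, 2 and 3, against 5.01%, 5.00% and 4.70% in DMSO libraries. Genes whose mature transcript is shorter than 1000 bases took 6.78%, 3.58% and 6.54% of protein-coding reads in inhibitor libraries, against 6.41%, 6.34% and 6.60% in DMSO libraries. Each comparison is therefore given with and without this library.

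Basal levels spanned a wide range within each complex. In DMSO libraries the mean level in complex I ran between 1.46 FPKM (NDUFA13) and 313 FPKM (NDUFS5), in complex III between 3.20 FPKM (UQCRHL) and 174 FPKM (UQCRH), and in complex IV between 14.3 FPKM (COX7A2L) and 184 FPKM (COX8A). SDHA, the flavoprotein of complex II, stood at 105 FPKM, and SDHC, a membrane anchor of the same complex, at 4.63 FPKM. ATP5F1B, the catalytic beta subunit of the ATP synthase, was the highest of all tested subunits at 521 FPKM. Levels are per listed gene length, which was longer than the principal transcript for most members, by a median of 2.28 times and up to 8.98 times (NDUFA11), so FPKM of compact and of long-listed genes are not on an equal footing. The gene bodies of 51 of the 81 tested subunits overlapped another gene, and the sources do not state whether counting used the strand.

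Promoters are shown for 3 members that recur below, SDHA, UQCRC2 and NDUFS3, chosen after their values were seen. In the fit without inhibitor replicate 2 described below, SDHA and UQCRC2 were higher under the inhibitor and NDUFS3 was lower. With all 6 libraries the limma adjusted p was 0.146, 0.0754 and 0.0543, above the threshold of 0.05. RefSeq promoter windows (250 bases before to 50 after the start, GRCh38.p14) matched 65 of the 81 tested subunits, with 78 windows in all, since a gene with several starts has several windows. A gene was counted where any of its windows held the letters, for the subunits as for the 27305 genes of the whole promoter set, which have 35116 windows. That set was not limited to protein-coding genes or to genes that passed the filter, as the subunits were, so the 2 shares are not of like genes. The letters GCGCA and GCGC around any 1 base, a form of the NRF1 motif, occurred on either strand in at least 1 window of 16 of the 65 genes (24.6%), against 6.98% of all genes. The letters CCGGAAG, a form of the ETS motif, occurred on either strand in at least 1 window of 21 of the 65 genes (32.3%), against 12.2% of all genes. Overlapping matches were counted separately, and ATP5ME, SDHD and UQCR11 held both motifs. The first 250 bases of each window, up to the start and on the plus strand, lay at chr5:218070-218319 for SDHA, chr11:47578824-47579073 for NDUFS3 and chr16:21953111-21953360 for UQCRC2. Capitals mark the motif matches: 4 copies of the NRF1-type letters in SDHA, 2 copies of CCGGAAG on opposite strands in NDUFS3, and no match of either in UQCRC2.
SDHA: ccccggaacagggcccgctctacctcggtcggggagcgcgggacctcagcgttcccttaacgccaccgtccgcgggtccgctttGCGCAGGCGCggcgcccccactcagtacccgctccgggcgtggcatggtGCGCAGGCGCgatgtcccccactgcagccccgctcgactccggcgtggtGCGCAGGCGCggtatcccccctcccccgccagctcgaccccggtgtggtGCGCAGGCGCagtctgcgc
NDUFS3: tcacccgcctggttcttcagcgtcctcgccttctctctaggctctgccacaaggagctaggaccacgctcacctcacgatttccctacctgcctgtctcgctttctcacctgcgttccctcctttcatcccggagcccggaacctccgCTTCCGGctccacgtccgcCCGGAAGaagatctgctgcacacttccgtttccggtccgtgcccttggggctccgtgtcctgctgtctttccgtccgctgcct
UQCRC2: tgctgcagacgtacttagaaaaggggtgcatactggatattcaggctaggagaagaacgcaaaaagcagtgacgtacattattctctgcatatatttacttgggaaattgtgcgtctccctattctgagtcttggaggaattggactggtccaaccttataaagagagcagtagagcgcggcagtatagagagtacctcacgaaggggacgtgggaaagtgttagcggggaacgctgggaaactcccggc

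With all 6 libraries, only NDUFB5 of the 81 tested subunits differed between inhibitor and DMSO. A gene was called where its Benjamini-Hochberg adjusted p was under 0.05 in limma fitted on log2(FPKM + 1) over all 13578 genes that passed the same filter; fold changes are on that scale, which understates the change of low genes. That 1 call, higher under the inhibitor, is 1.23% of the tested subunits, against 17.2% of all genes tested (2339, of which 975 or 7.18% higher and 1364 or 10.0% lower). With each library rescaled after leaving out mitochondrially encoded genes, the split over all genes was 1240 higher and 981 lower, and the median over all genes moved to 0.06 against -0.05. At an unadjusted p under 0.05 there were 8 subunits, and limma-voom on the recovered reads called 1 higher and 2 lower. For counts of these kinds, here and below, the share over all genes is not given, so they are read against no background. The median log2 fold change of the subunits was -0.23, against -0.05 over all genes, and 60 of the 81 estimates were below 0. The 3 inhibitor libraries lay above all 3 DMSO libraries for 9 subunits (19.2% of all genes did so) and below them for 11 (26.7% of all genes).

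Without inhibitor replicate 2, 15 subunits were called, 11 higher and 4 lower under the inhibitor. This was 18.5% of those tested, against 40.6% of all genes in the same fit (17.5% higher and 23.1% lower). The median log2 fold change was then 0.03, against -0.05 over all genes, with 47 estimates above 0 and 34 below. The subunits that rose were NDUFA4L2, NDUFB5 and NDUFS1 in complex I, SDHA in complex II, UQCRB and UQCRC2 in complex III, COX7A2 and COX7C in complex IV, and ATP5F1B, ATP5PD and ATP5IF1 in complex V. Those that fell were NDUFS3, NDUFB9 and NDUFV2 in complex I and CYC1 in complex III. Apart from NDUFA4L2, these changes were between -0.43 and 0.56 on the log2 scale. The 2 remaining inhibitor libraries lay above all 3 DMSO libraries for 25 subunits (28.6% of all genes) and below them for 12 (36.4% of all genes). In each of the 5 fits that left out another library, 0 subunits were called by limma.

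**Figure D1:**
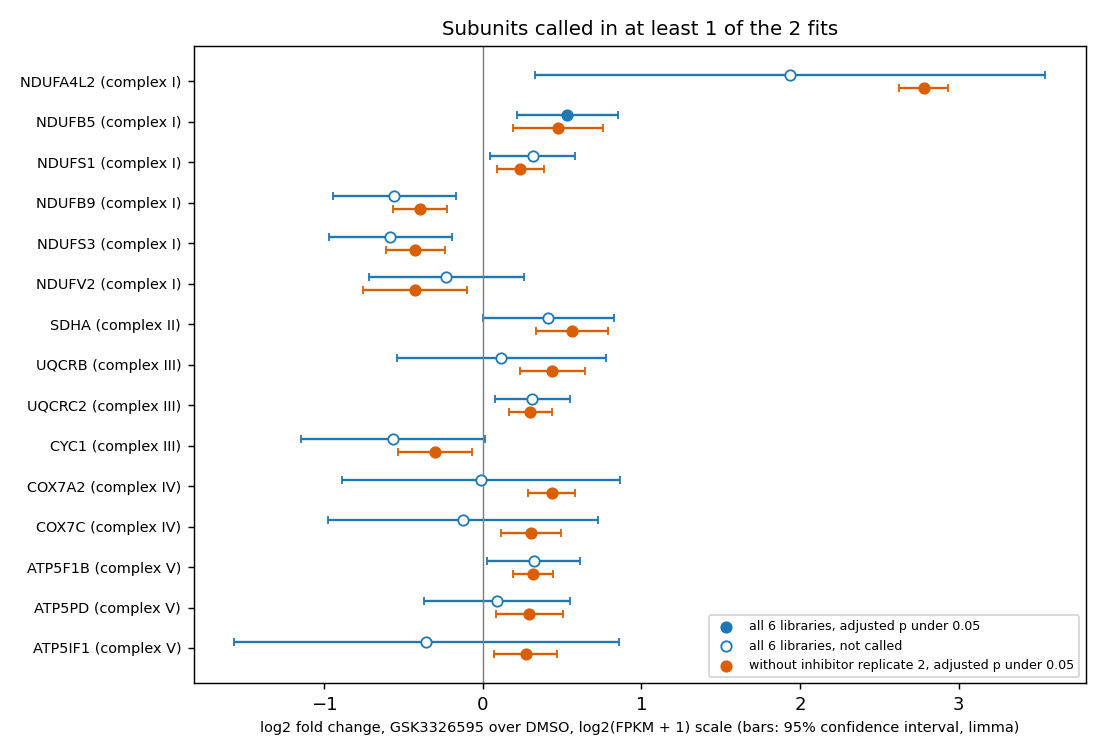
Log2 fold change of GSK3326595 over DMSO (x axis, log2(FPKM + 1) scale) with 95% confidence intervals from limma for the 15 subunits called in either fit, with all 6 libraries and without inhibitor replicate 2; filled points are called. Only NDUFB5 is filled with all 6 libraries, and NDUFA4L2 lies at 2.78 without replicate 2 while the others lie between -0.43 and 0.56.

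Inhibitor replicate 2 was the lowest of the 6 libraries for 63 of the 81 tested subunits (77.8%), against 36.6% of all genes tested. Relative to the mean of the DMSO libraries, the median subunit was at 0.08, -0.74 and -0.02 on the log2 scale in inhibitor replicates 1, 2 and 3, whereas the median over all genes was at -0.04, -0.07 and -0.05. Complex IV was lowest in that library, with a median of -1.01, followed by complex V at -0.88 and complexes III and I at -0.73 each. Complex II, with a median of -0.02 over its 4 genes, and CYCS, at -0.22, were closer to DMSO. Reads of all 92 members made up 1.19%, 0.795% and 1.15% of protein-coding reads in inhibitor libraries, against 0.997%, 0.992% and 1.03% in DMSO libraries. In bulk libraries, fewer cells that carry a transcript and less of it per cell cannot be told apart.

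**Figure D2:**
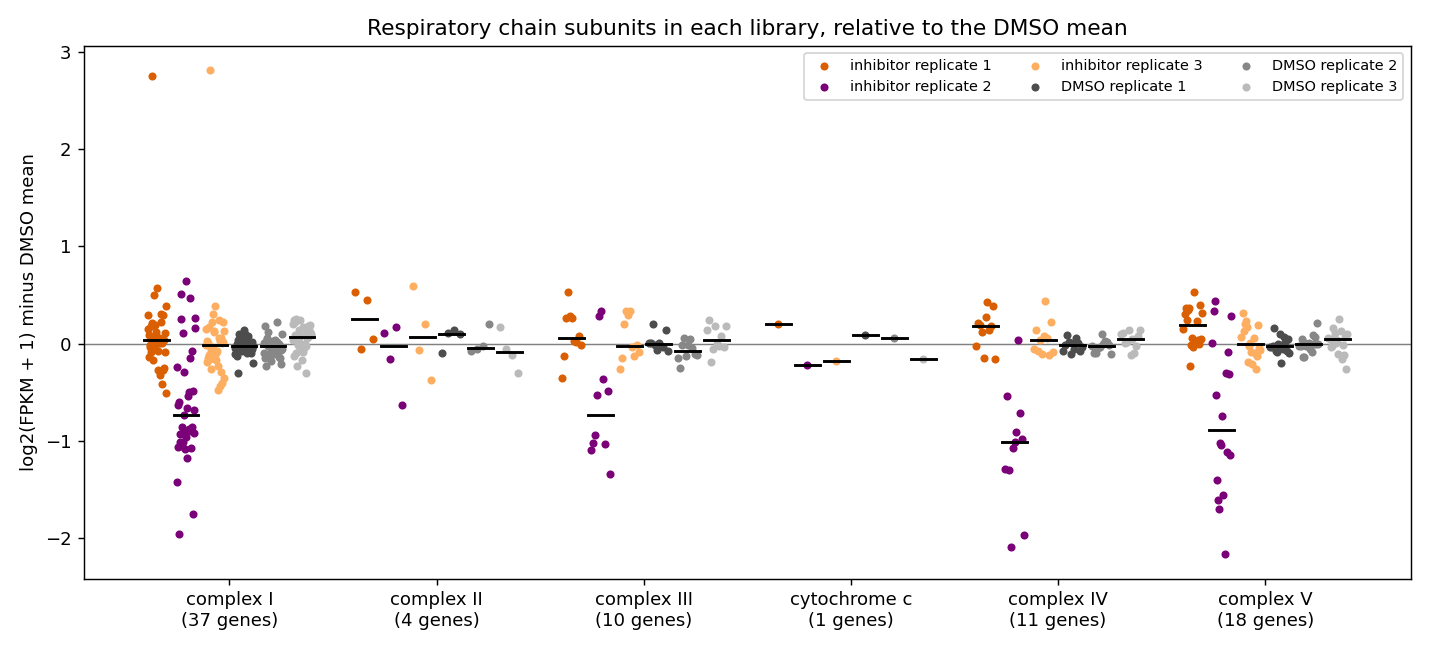
Each point is 1 tested subunit in 1 library, as log2(FPKM + 1) minus its mean over the DMSO libraries (y axis), by complex and library (inhibitor replicates left, DMSO replicates right); bars are medians. Inhibitor replicate 2 lies lowest in complexes I, III, IV and V (medians between -1.01 and -0.73), and the 2 points near 2.8 in complex I are NDUFA4L2.

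The subunit transcripts are short, and length went with the low values of that library. The principal transcript (GENCODE 29) had a median of 932 bases over the tested subunits, and 45 of the 81 (55.6%) were shorter than 1000 bases, against 5.67% of the protein-coding genes tested, whose median was 2992 bases. For the 12 subunits under 600 bases, the median difference of inhibitor replicate 2 from replicates 1 and 3 was -1.33 (log2). For the 11 subunits over 2500 bases it was -0.10. All nuclear protein-coding genes tested moved with length too, at -0.91 under 600 bases (100 genes) and 0.18 over 2500 bases (6387 genes). In all 6 length classes the subunit median lay below that of all nuclear protein-coding genes, the subunits included: -1.33 against -0.91 under 600 bases, -0.92 against -0.85 up to 800, -0.83 against -0.79 up to 1000, -0.71 against -0.49 up to 1500, -0.46 against -0.28 up to 2500 and -0.10 against 0.18 beyond. Across the 81 subunits, which share their libraries, transcript length and this difference had a Pearson r of 0.52 and a Spearman rho of 0.57. The difference of inhibitor replicates 1 and 3 from DMSO had an r of 0.16 and a rho of 0.24 with length.

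**Figure D3:**
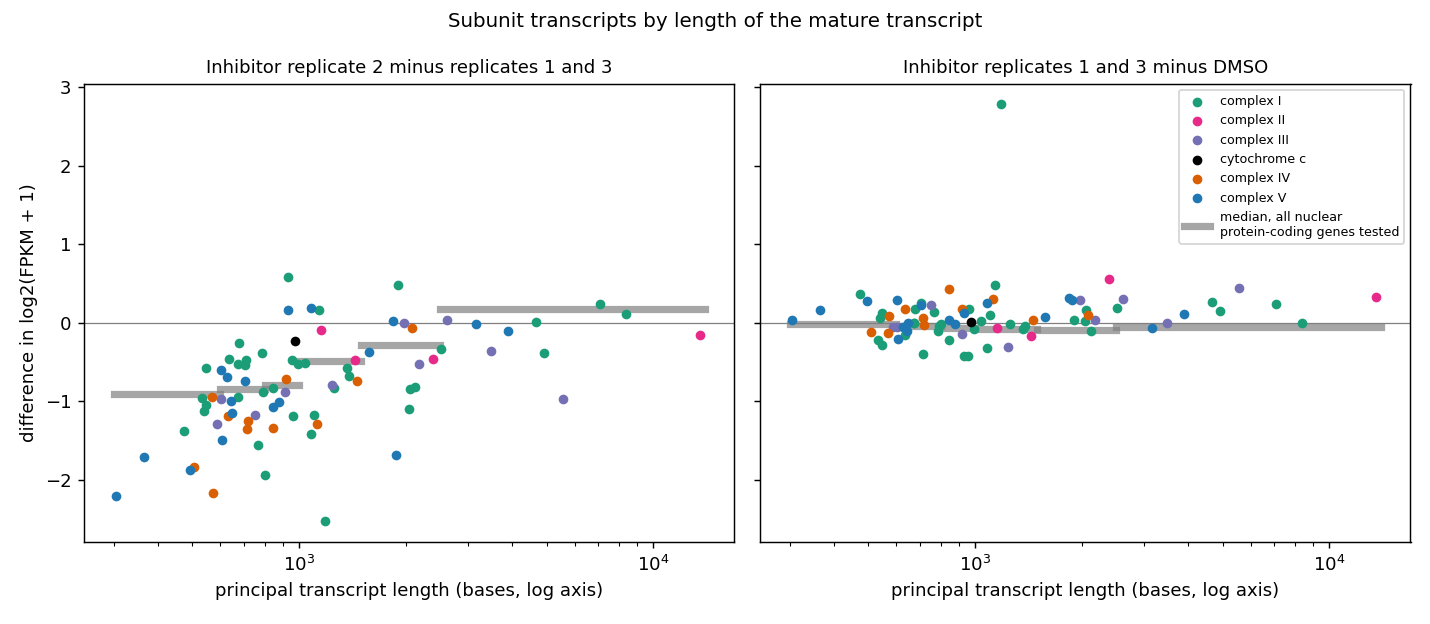
Principal transcript length in bases (x axis, log scale) against the difference in log2(FPKM + 1) for each tested subunit, on the left for inhibitor replicate 2 minus the mean of inhibitor replicates 1 and 3, on the right for inhibitor replicates 1 and 3 minus DMSO. Grey bars are medians of all nuclear protein-coding genes tested in 6 length classes: on the left they climb between -0.91 and 0.18, and the subunit medians lie below them in all 6 classes, while on the right they stay near 0.

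When the smooth trend of each library on transcript length was removed, 7 subunits were called with all 6 libraries, against 23.0% of all genes (11.2% higher and 11.8% lower). NDUFA4L2, NDUFB5, SDHA, UQCRC2 and ATP5F1B rose and NDUFB9 and NDUFS3 fell, and all 7 had been called without replicate 2 as well. The median over the subunits was then -0.10. With the trend removed and replicate 2 left out, 15 subunits rose and 3 fell, against 40.8% of all genes called (20.0% higher and 20.8% lower). Both of these fits were added after the data had been seen.

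In complex I, 3 of the 37 tested genes rose and 3 fell without replicate 2. These 6 are 16.2% of the genes of the complex, against 40.6% of all genes in that fit (17.5% higher and 23.1% lower). NDUFB5 (ENSG00000136521, chr3:179604690-179627647 on hg38), an accessory subunit of the membrane arm, had 9.30, 9.85 and 8.06 FPKM in inhibitor libraries, against 6.65, 6.08 and 5.18 FPKM in DMSO libraries. The groups did not overlap, and replicate 2 was the highest of the 6. The mean was 9.07 ± 0.915 FPKM in inhibitor libraries and 5.97 ± 0.745 FPKM in DMSO libraries (SD, n = 3 each), a ratio of 1.52, and the log2 fold change was 0.53 with a 95% confidence interval of 0.22 to 0.85 (limma adjusted p = 0.0394). Leaving out any library other than inhibitor replicate 2 ended the call, with adjusted p-values between 0.0577 and 0.138, and leaving out that library gave 0.0214.

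NDUFA4L2 had by far the largest difference of the tested subunits. It is a paralogue of NDUFA4 known as a target of hypoxia-inducible factor, and NDUFA4, named as a complex I subunit, is now counted with complex IV. NDUFA4L2 (ENSG00000185633, chr12:57234903-57240715 on hg38) had 44.8, 7.11 and 46.9 FPKM in inhibitor libraries, against 5.72, 5.72 and 6.02 FPKM in DMSO libraries. All inhibitor libraries lay above all DMSO libraries, but replicate 2 was close to DMSO. The log2 fold change was 1.94 with all libraries (SE 0.67, limma adjusted p = 0.0937) and 2.78 without replicate 2 (SE 0.06, adjusted p = 0.0001), where the mean was 7.88 times that of DMSO. NDUFA4 had 26.8, 14.5 and 26.1 FPKM in inhibitor libraries, against 29.2, 29.6 and 26.7 FPKM in DMSO libraries, and was not called in either fit. NDUFA4L2 thereby made up 62.6%, 32.8% and 64.2% of the summed FPKM of the pair in inhibitor libraries, against 16.4%, 16.2% and 18.4% in DMSO libraries. The shares did not overlap, and the exact two-sided permutation p was 0.1, the smallest that 3 against 3 libraries can give. The gene overlaps SHMT2 on the other strand by 33 bases; SHMT2 had 105, 65.3 and 113 FPKM in inhibitor libraries, against 90.3, 85.9 and 99.0 FPKM in DMSO libraries.

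**Figure D4:**
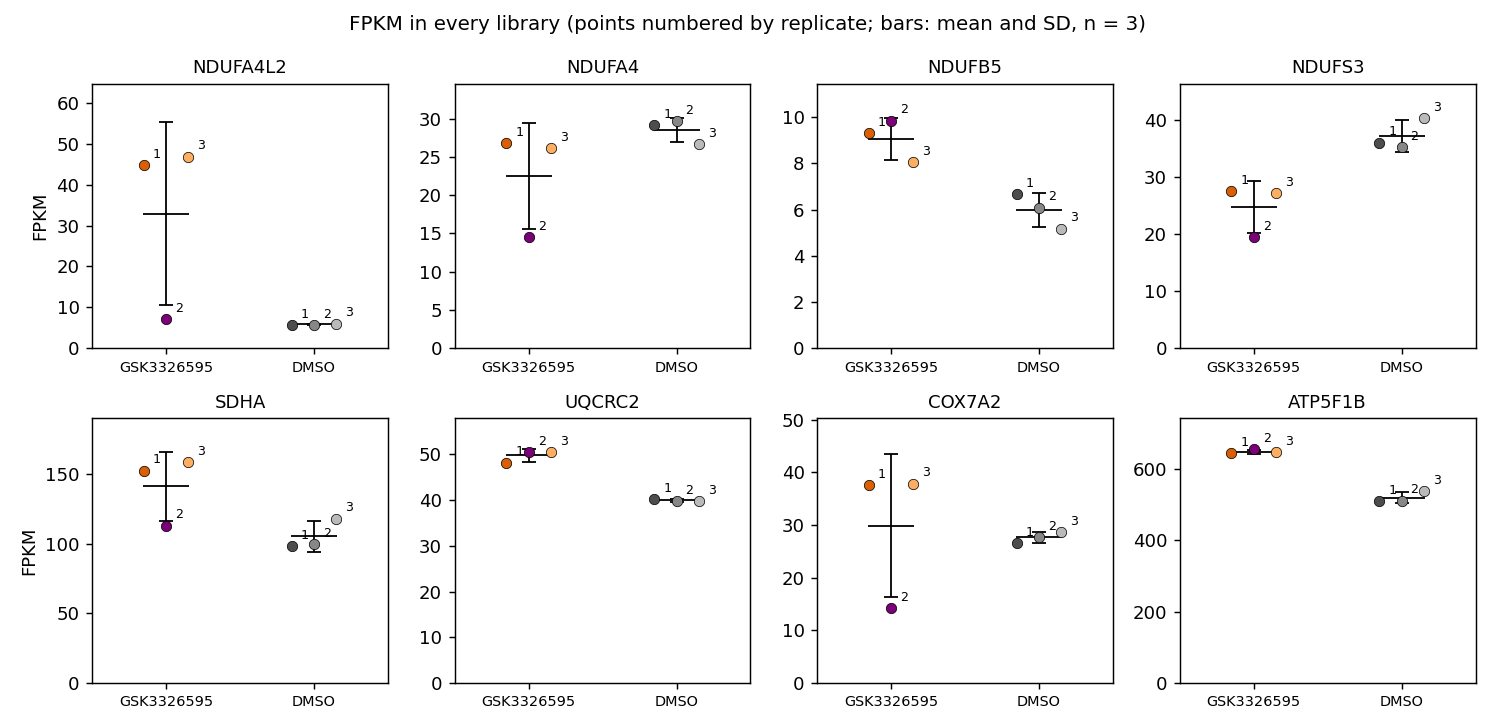
FPKM (y axis, from 0) of 8 subunits in each library, inhibitor left and DMSO right; points carry the replicate number and bars show the mean and SD (n = 3). NDUFA4L2 and COX7A2 are high in inhibitor replicates 1 and 3 and low in replicate 2 (7.11 and 14.3 FPKM), whereas NDUFB5, UQCRC2 and ATP5F1B are higher than DMSO in all 3.

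The 7 core subunits of complex I followed here are the nuclear ones, which carry the flavin and the iron-sulfur clusters. Without replicate 2, 1 of them rose and 2 fell, against 17.5% of all genes higher and 23.1% lower. NDUFS3, a core subunit of the arm that reaches into the matrix, had 27.5, 19.5 and 27.2 FPKM in inhibitor libraries, against 36.0, 35.2 and 40.4 FPKM in DMSO libraries. The groups did not overlap. Its log2 fold change was -0.58 with all libraries (limma adjusted p = 0.0543) and -0.43 without replicate 2 (adjusted p = 0.00788), and limma-voom called it lower with all libraries (adjusted p = 0.0442). Its promoter window, printed above, holds 2 copies of CCGGAAG. The gene body overlaps CELF1 on the other strand by 234 bases. CELF1 had 31.0, 26.8 and 31.3 FPKM in inhibitor libraries, against 46.8, 47.7 and 48.96 FPKM in DMSO libraries, and fell in both fits (log2 fold change -0.67, limma adjusted p = 0.013 with all libraries; -0.60, adjusted p = 0.00102 without replicate 2). It also overlaps KBTBD4 on the other strand by 6819 bases and PTPMT1 on its own strand by 8032 bases, neither of them called in either fit. Reads of overlapping genes may be mixed, and their part in the NDUFS3 values was not tested. NDUFS1, the largest core subunit, and NDUFV2, an iron-sulfur subunit, were named after their values were seen. NDUFS1 had 12.9, 15.4 and 13.03 FPKM in inhibitor libraries, against 10.9, 10.98 and 10.6 FPKM in DMSO libraries, and rose without replicate 2 (log2 fold change 0.23, adjusted p = 0.0257). NDUFV2, at a low level, had 1.64, 3.20 and 1.95 FPKM in inhibitor libraries, against 2.26, 3.02 and 3.01 FPKM in DMSO libraries. Its groups overlapped through replicate 2, the highest library, without which it fell (log2 fold change -0.43, adjusted p = 0.0474).

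Of the 30 tested complex I genes outside the core, NDUFA4L2 and NDUFB5 rose and NDUFB9 fell without replicate 2. Of all genes, 17.5% were higher and 23.1% lower in that fit. NDUFB9, an accessory subunit of the membrane arm, had 19.4, 12.9 and 17.4 FPKM in inhibitor libraries, against 24.9, 24.1 and 24.6 FPKM in DMSO libraries. The groups were apart, and the log2 fold change was -0.56 with all libraries (limma adjusted p = 0.0598; limma-voom adjusted p = 0.0499) and -0.40 without replicate 2 (adjusted p = 0.00719). The most abundant subunits of the complex were NDUFS5 and NDUFS6, both accessory. NDUFS5 had 258, 172 and 255 FPKM in inhibitor libraries, against 303, 283 and 353 FPKM in DMSO libraries, and NDUFS6 had 143, 49.997 and 128 FPKM in inhibitor libraries, against 167, 153 and 192 FPKM in DMSO libraries. Neither group pair overlapped, yet neither gene was called in either fit (log2 fold changes without replicate 2 of -0.28 and -0.33, adjusted p = 0.067 and 0.0564).

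Of the 4 tested genes of complex II, which is also the succinate dehydrogenase of the citric acid cycle, SDHA alone rose without replicate 2. In that fit 17.5% of all genes were higher and 23.1% lower. SDHA, whose promoter window holds 4 copies of the NRF1-type letters, had 153, 113 and 159 FPKM in inhibitor libraries, against 98.3, 99.7 and 118 FPKM in DMSO libraries. The groups overlapped only through inhibitor replicate 2 and DMSO replicate 3. The log2 fold change was 0.41 with all libraries (limma adjusted p = 0.146) and 0.56 without replicate 2 (SE 0.09, adjusted p = 0.00603). SDHB, the iron-sulfur subunit, had 46.9, 43.7 and 46.5 FPKM in inhibitor libraries, against 52.7, 46.8 and 47.0 FPKM in DMSO libraries, and was not called in either fit. With all libraries 0 of the 4 genes were called by limma, 0 at an unadjusted p under 0.05, and 0 by limma-voom.

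Of the 10 tested genes of complex III, UQCRB and UQCRC2 rose and CYC1 fell without replicate 2. In that fit 17.5% of all genes were higher and 23.1% lower. UQCRC2, a core protein of the matrix side, had 48.2, 50.6 and 50.6 FPKM in inhibitor libraries, against 40.3, 39.7 and 39.8 FPKM in DMSO libraries. All inhibitor libraries, replicate 2 included, were above all DMSO libraries. The log2 fold change was 0.31 with all libraries (95% confidence interval 0.07 to 0.55, limma adjusted p = 0.0754) and 0.30 without replicate 2 (adjusted p = 0.00844). Its partner UQCRC1 had 153, 153 and 154 FPKM in inhibitor libraries, against 120, 115 and 142 FPKM in DMSO libraries, also apart, but was not called in either fit (log2 fold change 0.29, adjusted p = 0.164 and 0.0596 without replicate 2). CYC1, the cytochrome that hands electrons to cytochrome c, had 104, 61.8 and 111 FPKM in inhibitor libraries, against 133, 120 and 147 FPKM in DMSO libraries. Its groups did not overlap, and the log2 fold change without replicate 2 was -0.30 (adjusted p = 0.0487). UQCRB, which binds ubiquinone, had 14.8, 6.57 and 12.8 FPKM in inhibitor libraries, against 9.84, 10.3 and 9.54 FPKM in DMSO libraries. Replicate 2 lay below DMSO and the other inhibitor libraries above it, and the log2 fold change was 0.12 with all libraries and 0.44 without replicate 2 (adjusted p = 0.00958). UQCRH, the hinge subunit and the most abundant of the complex, had 177.2, 85.1 and 160 FPKM in inhibitor libraries, against 170, 169 and 184 FPKM in DMSO libraries, and was not called. CYCS, the mobile carrier cytochrome c, had 30.1, 22.1 and 22.8 FPKM in inhibitor libraries, against 27.6, 27.1 and 23.2 FPKM in DMSO libraries, with overlapping groups. For complex III, 1 gene reached an unadjusted p under 0.05 with all libraries, and 0 were called by limma or limma-voom.

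Of the 11 tested genes of complex IV, COX7A2 and COX7C rose without replicate 2. In that fit 17.5% of all genes were higher and 23.1% lower. COX7A2, a small subunit in the membrane, had 37.5, 14.3 and 37.9 FPKM in inhibitor libraries, against 26.5, 27.7 and 28.7 FPKM in DMSO libraries. Replicates 1 and 3 were above every DMSO library and replicate 2 below every one. Its log2 fold change was -0.01 with all libraries and 0.43 without replicate 2 (SE 0.06, limma adjusted p = 0.0035). COX7C, also a small membrane subunit, had 114, 43.6 and 102 FPKM in inhibitor libraries, against 82.6, 86.6 and 92.5 FPKM in DMSO libraries, and a log2 fold change of -0.12 with all libraries and 0.30 without replicate 2 (adjusted p = 0.0249). Their principal transcripts have 843.5 bases (the median where several are principal) and 1125 bases. The other 9 tested genes of the complex were called in neither fit, and with all libraries 0 of 11 were called by limma or limma-voom and 0 had an unadjusted p under 0.05.

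Complex IV has tissue-specific isoforms, and in the pairs with COX names the ubiquitous member carried nearly all of the signal in both groups. The pair of NDUFA4 and NDUFA4L2, given above, did not follow this. COX4I2, COX6A2 and COX8C, which are known for lung, for heart and muscle, and for testis, were at 0 reads or at most 0.230 FPKM. COX6B2, a testis isoform, had 0.416, 0.215 and 0.756 FPKM in inhibitor libraries, against 0.402, 0.143 and 0.407 FPKM in DMSO libraries, at most 0.772% of the summed FPKM with COX6B1. COX7A1, the heart and muscle isoform, made up 1.59%, 3.998% and 2.05% of the summed FPKM with COX7A2 in inhibitor libraries, against 2.34%, 1.45% and 0.927% in DMSO libraries. Among the ubiquitous isoforms, COX4I1 had 63.1, 25.6 and 61.8 FPKM in inhibitor libraries, against 60.5, 62.9 and 68.7 FPKM in DMSO libraries. COX6A1 had 41.2, 8.12 and 38.8 FPKM in inhibitor libraries, against 38.4, 36.6 and 38.2 FPKM in DMSO libraries. COX8A had 164, 46.4 and 173 FPKM in inhibitor libraries, against 179, 171 and 203 FPKM in DMSO libraries. In these 3 genes replicate 2 was the lowest of the 6 libraries, and replicates 1 and 3 lay near or within the DMSO values. COX6B1 had 94.6, 49.5 and 97.2 FPKM in inhibitor libraries, against 97.3, 102 and 116 FPKM in DMSO libraries, the groups just apart. COX5B, among the 2 most abundant of the complex, had 124, 43.6 and 103 FPKM in inhibitor libraries, against 115, 101 and 109 FPKM in DMSO libraries. COX7A2L, known as a factor that joins complexes into supercomplexes and longer than most members at 2084 bases, had 15.8, 14.7 and 14.99 FPKM in inhibitor libraries, against 14.9, 14.6 and 13.4 FPKM in DMSO libraries.

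Of the 18 tested genes of complex V, ATP5F1B, ATP5PD and ATP5IF1 rose without replicate 2. In that fit 17.5% of all genes were higher and 23.1% lower. ATP5F1B, the catalytic beta subunit, had 645, 656 and 649 FPKM in inhibitor libraries, against 510, 512 and 539 FPKM in DMSO libraries. The 3 inhibitor libraries were close together and above all DMSO libraries. The mean was 650 ± 5.58 FPKM in inhibitor libraries and 521 ± 16.1 FPKM in DMSO libraries (SD, n = 3 each), and the log2 fold change was 0.32 with all libraries (95% confidence interval 0.03 to 0.61, limma adjusted p = 0.118) and 0.31 without replicate 2 (adjusted p = 0.00598). Of the other 4 tested genes of the catalytic head and central stalk, none was called in either fit, and all 5 estimates were above 0 without replicate 2. ATP5PD, a subunit of the peripheral stalk that holds the head in place, had 26.2, 15.7 and 22.6 FPKM in inhibitor libraries, against 18.7, 19.7 and 20.7 FPKM in DMSO libraries, and a log2 fold change without replicate 2 of 0.29 (adjusted p = 0.0384). ATP5IF1, the inhibitor protein that blocks ATP hydrolysis by the enzyme, had 57.1, 13.8 and 49.9 FPKM in inhibitor libraries, against 41.9, 44.2 and 46.1 FPKM in DMSO libraries. Replicates 1 and 3 lay above DMSO and replicate 2 below, with a log2 fold change of -0.36 with all libraries and 0.27 without replicate 2 (adjusted p = 0.041). ATP5IF1 overlaps AL353622.1 on the other strand over 1945 bases, and that gene rose in the same fit (log2 fold change 1.67, adjusted p = 0.00148). ATP5MD, a small membrane subunit and the second most abundant of the complex, had 71.6, 43.2 and 68.6 FPKM in inhibitor libraries, against 78.4, 73.2 and 67.8 FPKM in DMSO libraries. With all libraries 0 of the 18 genes were called by limma or limma-voom, and 2 had an unadjusted p under 0.05.

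The proton-carrying ring of the ATP synthase is made from 1 mature protein that 3 genes encode, and the order of their shares was the same in all 6 libraries. ATP5MC2 gave 50.2%, 56.7% and 50.02% of the summed FPKM of ATP5MC1, ATP5MC2 and ATP5MC3 in inhibitor libraries, against 49.2%, 48.5% and 46.8% in DMSO libraries. ATP5MC1 gave 31.3%, 24.7% and 32.2% in inhibitor libraries, against 33.8%, 34.7% and 36.6% in DMSO libraries. ATP5MC3 gave 18.5%, 18.6% and 17.8% in inhibitor libraries, against 17.0%, 16.75% and 16.7% in DMSO libraries. The shares of ATP5MC2 and ATP5MC3 were higher and those of ATP5MC1 lower in all inhibitor libraries than in any DMSO library. Since the 3 shares add up to the whole, they do not move independently. None of the 3 genes was called in either fit.

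Assembly factors, the proteins that build the complexes without staying in them, are given from a list of 59, of which 55 were tested. With all libraries 1 rose and 2 fell, 5.45% of those tested against 17.2% of all genes. Without replicate 2, 11 rose and 8 fell, 34.5% against 40.6% of all genes. NDUFAF4, a complex I assembly factor, had 3.002, 2.79 and 2.92 FPKM in inhibitor libraries, against 4.88, 5.40 and 4.81 FPKM in DMSO libraries (log2 fold change -0.63, limma adjusted p = 0.013). NDUFAF1, another complex I factor, had 4.74, 3.13 and 4.18 FPKM in inhibitor libraries, against 6.50, 7.17 and 5.96 FPKM in DMSO libraries (-0.60, adjusted p = 0.0436). COX15, which makes the heme of complex IV, had 15.4, 18.7 and 13.5 FPKM in inhibitor libraries, against 9.47, 10.1 and 9.28 FPKM in DMSO libraries (0.66, adjusted p = 0.0251). In all 3 genes the groups did not overlap. For complexes II, III and V no factor was called with all libraries, with 0, 2 and 3 at an unadjusted p under 0.05 and 0, 1 and 0 called by limma-voom. Their most abundant factors were SDHAF1 with 12.6 to 20.8 FPKM in inhibitor libraries and 19.5 to 22.4 FPKM in DMSO libraries, UQCC1 with 5.13 to 9.56 FPKM in inhibitor libraries and 5.82 to 6.51 FPKM in DMSO libraries, and TMEM70 with 6.16 to 10.03 FPKM in inhibitor libraries and 10.4 to 12.3 FPKM in DMSO libraries.

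Among 18 tested regulators of mitochondrial biogenesis and of mitochondrial DNA, 0 rose and 6 fell with all libraries, against 7.18% of all genes higher and 10.0% lower. The 6 are 33.3% of those tested. Without replicate 2, 1 rose and 8 fell, against 17.5% of all genes higher and 23.1% lower, so lower calls outnumbered higher ones over all genes too. With all libraries this order over all genes was reversed by rescaling without mitochondrially encoded genes, as given above. Counts of the regulators in that scaling are not given here. POLG, the mitochondrial DNA polymerase, had 20.1, 18.7 and 21.5 FPKM in inhibitor libraries, against 30.7, 28.8 and 35.5 FPKM in DMSO libraries (log2 fold change -0.63, limma adjusted p = 0.0212). GABPB1, a subunit of the ETS-family factor GABP, had 3.23, 3.78 and 3.34 FPKM in inhibitor libraries, against 5.19, 5.02 and 5.48 FPKM in DMSO libraries (-0.49, adjusted p = 0.0281). PPRC1, a coactivator of the PGC-1 family, had 8.47, 8.07 and 9.06 FPKM in inhibitor libraries, against 11.7, 11.3 and 13.1 FPKM in DMSO libraries (-0.45, adjusted p = 0.037). The groups did not overlap in any of the 3, and replicate 2 was near its own group in each. NRF1, after which the first motif is named, had 3.92, 4.003 and 4.15 FPKM in inhibitor libraries, against 4.57, 4.70 and 5.04 FPKM in DMSO libraries, and was not called (adjusted p = 0.208; named after its values were seen).

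Of the 13 subunits encoded in mitochondrial DNA, the partners of these proteins in complexes I, III, IV and V, 4 rose and 0 fell with all libraries, 30.8% against 7.18% of all genes higher. This came with a median log2 fold change of 0.73, and limma-voom also called 4 higher. Without replicate 2, 8 rose and 0 fell, 61.5% against 17.5% of all genes higher, at a median of 0.34. In that fit 9 had an unadjusted p under 0.05, with no share over all genes given. MT-CO3, a core subunit of complex IV, had 5543, 6992 and 5418 FPKM in inhibitor libraries, against 2762, 2664 and 2621 FPKM in DMSO libraries (log2 fold change 1.15, limma adjusted p = 0.0111). MT-ATP6, the membrane channel of the ATP synthase, had 5068, 7554 and 4939 FPKM in inhibitor libraries, against 2896, 2923 and 2946 FPKM in DMSO libraries (0.97, adjusted p = 0.0296). The groups were apart in both genes. Of the 13 citric acid cycle enzymes tested, 0 rose and 1 fell with all libraries, against 7.18% of all genes higher and 10.0% lower. That 1 was IDH3B, a regulatory subunit of isocitrate dehydrogenase. It had 26.7, 23.7 and 28.4 FPKM in inhibitor libraries, against 36.0, 37.9 and 43.4 FPKM in DMSO libraries (-0.56, limma adjusted p = 0.0313). In the fit without replicate 2, 2 enzymes rose and 2 fell, against 17.5% of all genes higher and 23.1% lower. Fits were run with inhibitor replicate 2 left out, with length trends removed and with mitochondrially encoded genes left out of the scaling. Beyond these, a part of that library's transcript length pattern or mitochondrial read share in the nuclear subunit values was not tested.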

How the data were processed

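The authors deposited 1 table of FPKM values for 58735 genes and 6 libraries, with a listed gene length in bases (another unit) and gene coordinates on hg38, per the file headers and the submitters' processing notes. RNA was made into directional libraries, per the labels' protocols; the sources used here name no aligner or counter. FPKM times listed length gave whole reads for 100% of values above 0, within 0.01 reads. Columns were matched to libraries by title, and no 2 libraries of a group agreed within sampling noise (chi-square per degree of freedom at least 2.48).

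Genes that reached 1 FPKM in 3 or more of the 6 libraries were fitted as log2(FPKM + 1) with limma 3.58.1 in R 4.3.3. The fit had a mean-variance trend and no block and was two-sided (Benjamini-Hochberg over 13578 genes, threshold 0.05). The procedure was run on simulated data in which no library stood apart, so that run does not cover a library like inhibitor replicate 2. limma-voom ran on the recovered reads. Transcript lengths came from the principal transcript in GENCODE 29, found for 13569 of the genes tested, and length trends were removed by loess (span 0.3). Python 3.11.15, pandas 2.3.3, numpy 2.4.6 and matplotlib 3.10.9 were used.

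Members and lists were chosen with earlier results of these data known. Named by rule were NDUFB5, the isoform pairs, CYCS and COX7A2L, in each complex up to 4 called members per fit with the smallest adjusted p and the 2 most abundant, and from each other list up to 3 called genes or the most abundant one. Genes named beside these were chosen after their values were seen: NDUFS1, NDUFV2, NRF1, ATP5S, SHMT2, AL353622.1, CELF1, KBTBD4, PTPMT1, SDHC, NDUFA13, UQCRHL, NDUFA11, the c-ring genes, and the readthrough or low members accounted for by name. Alternatives were other pseudocounts, filters and scalings, limma settings, library weights, a replicate block, length and GC trends, and leaving out each library.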

Additional observations from a re-analysis of the deposited data

How the results depend on the processing

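Over all genes, 2339 were called; 1533 without a filter, 1505 with a filter at 5 FPKM, 7697 with estimated library weights, 1478 with a replicate block, 4087 with listed length and GC trends removed. With replicate 2 of the inhibitor left out, 5520 were called with the listed length and 5530 with the transcript length trend removed. Leaving out 1 library gave 478 (without DMSO replicate 1) to 5513 (without inhibitor replicate 2). Of the subunits, 1 was called; 0 without a filter, 2 with a filter at 5 FPKM, 3 each with quantile normalization, with rescaling without mitochondrial genes and with limma-voom, 28 with library weights (23 higher and 5 lower), 0 with the replicate block, 5, 8 and 7 with the listed length, the listed length and GC, and the transcript length trends removed. With replicate 2 of the inhibitor left out, 17 were called with the listed length and 18 with the transcript length trend removed. Leaving out 1 library gave 0 to 15. The library weights gave inhibitor replicate 2 a weight of 0.0624, against 0.721 to 4.79 for the other 5. The cause of the other shifts was not tested.

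By complex, library weights gave 12 calls for complex I, 2 for II, 4 for III, 3 for IV and 7 for V. Complex I had 0 calls without a filter and with the replicate block, 2 with a filter at 5 FPKM, 3 with limma-voom, 4 with each of the 3 trend removals, 6 and 7 without inhibitor replicate 2 with the listed length or transcript length trend removed, and 0 to 6 on leaving out 1 library. Complex II had 1 call with quantile normalization, rescaling without mitochondrial genes, the transcript length trend removed, and either trend removed without replicate 2, and 0 to 1 on leaving out 1 library. Complex III had 1 with quantile normalization, rescaling, and the listed length or transcript length trend removed, 2 with listed length and GC, 3 with either trend removed without replicate 2, and 0 to 3 on leaving out 1 library. Complex IV had 2 with either trend removed without replicate 2, and 0 to 2 on leaving out 1 library. Complex V had 2 with listed length and GC trends removed, 1 with the transcript length trend, 5 with either trend removed without replicate 2, and 0 to 3 on leaving out 1 library. Counting NDUFA4 and NDUFA4L2 with complex IV could move no count with all libraries, since neither gene was called there. Without replicate 2, where NDUFA4L2 was called, its call would pass over to complex IV. CYCS was called in no setting.

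NDUFB5 kept its direction throughout (log2 fold change 0.45 to 0.61 on leaving out 1 library). It was not called without a filter (0.53, limma adjusted p = 0.0717) or with the replicate block (0.53, adjusted p = 0.0525). The median of the subunits lay between -0.39 and 0.08 over the settings, with both signs. In every setting it stayed within 0.45 (log2) of its main value. That bound is the SD of the inhibitor library medians (0.08, -0.74 and -0.02), which replicate 2 widens, so staying within it says little about stability.

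Of the named subunits, 11 that were not called with all libraries changed sign. COX7A2 was at 0.119 with quantile normalization, 0.1188 with rescaling and 0.1244 with the transcript trend removed, at 0.1664 and 0.1173 with the listed length and the listed length and GC trends removed, at 0.4392 with library weights, at 0.4701 and 0.4435 without replicate 2 and with the listed length or transcript trend removed, and at -0.24 to 0.43 on leaving out 1 library. COX7C, in the same order, was at 0.0453, 0.0118 and 0.0512, at 0.0544 with the listed length trend removed, at 0.3792 with weights, at 0.3415 and 0.3368 without replicate 2 and trend, and at -0.38 to 0.30 on leaving out 1 library. CYCS was at 0.096 and 0.0694 with quantile normalization and rescaling, 0.094 with weights, 0.0202 and 0.0971 with the listed length or transcript trend removed, 0.068 and 0.0348 without replicate 2 and that trend, and -0.20 to 0.015 on leaving out 1 library. SDHB was at 0.064 and 0.0422 with quantile normalization and rescaling, and at 0.0702, 0.0675 and 0.0836 with the listed length, listed length and GC, and transcript trends removed. With weights, and without replicate 2 with the listed length or transcript trend removed, COX6A1 was at 0.0838, 0.1001 and 0.067, COX5B at 0.1159, 0.0821 and 0.0565, and ATP5IF1 at 0.3455, 0.3125 and 0.2549. On leaving out 1 library these ran between -1.02 and 0.081, -0.68 and 0.060, and -0.72 and 0.27. COX4I1 was at 0.0016 with weights and 0.0203 without replicate 2 and the listed length trend, and UQCRH at 0.0123 with weights. UQCRB was at -0.0727 with listed length and GC trends removed and between -0.093 and 0.44 on leaving out 1 library, and ATP5PD between -0.059 and 0.29.

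Whether the replicate numbers pair the libraries is not given in the labels. The correlation of deviations between same-numbered libraries was -0.018, 0.157 and 0.248. Inhibitor replicates 2 and 3 correlated best with the DMSO library of their own number, and inhibitor replicate 1 with DMSO replicate 3 (0.092). These correlations are weak and inhibitor replicate 2 stands apart, so they cannot decide it. The replicate block is given as a setting, with 0 subunits and 1478 genes called. Depth limits genes near 0 only: 1 FPKM stood for several reads or more in the members tested.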

Other observations

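2 further families of nuclear genes for mitochondrial proteins, picked after the values of the respiratory chain were seen, are given as counts and values. Of 78 mitochondrial ribosomal protein genes tested, 0 rose and 5 fell with all 6 libraries (6.41% called, against 7.18% of all genes higher and 10.0% lower), 30 had an unadjusted p under 0.05, and limma-voom called 1 higher and 5 lower. Without inhibitor replicate 2, 5 rose and 28 fell (42.3% called, against 17.5% of all genes higher and 23.1% lower), at a median log2 fold change of -0.22 against -0.05 over all genes. Of the 5 that fell, MRPS24 passed the filter on low values only through the DMSO libraries, so it gives no support to the count. MRPL20, a protein of the large mitochondrial ribosomal subunit, had 15.7, 12.3 and 14.03 FPKM in inhibitor libraries, against 20.4, 20.01 and 20.9 FPKM in DMSO libraries (log2 fold change -0.52, limma adjusted p = 0.032). MRPS2, of the small subunit, had 31.0, 27.3 and 32.0 FPKM in inhibitor libraries, against 44.1, 41.8 and 46.1 FPKM in DMSO libraries (-0.54, limma adjusted p = 0.0254). The groups did not overlap in either gene.

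Of 22 tested genes of the TIMM and TOMM families, which move proteins into mitochondria, 0 rose and 2 fell with all libraries (9.09%, against 10.0% of all genes lower), and 0 rose and 7 fell without inhibitor replicate 2 (31.8%, against 23.1% of all genes lower). TOMM40, the channel of the outer membrane, had 30.5, 22.0 and 34.0 FPKM in inhibitor libraries, against 44.2, 44.98 and 46.9 FPKM in DMSO libraries (-0.66, limma adjusted p = 0.0465). TIMM22, the core of an inner membrane translocase, had 6.11, 4.49 and 6.12 FPKM in inhibitor libraries, against 9.69, 8.17 and 8.14 FPKM in DMSO libraries (-0.56, limma adjusted p = 0.0462). Among these genes with 0 higher calls, 7 had an unadjusted p under 0.05 with all libraries and limma-voom called 0 higher and 2 lower. These counts, too, have no share over all genes beside them. Whether these families differ from the respiratory chain subunits was not tested.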
